A study of Mus musculus with 6 samples.

Results

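Collagens are the triple-helical proteins of the extracellular matrix, and each chain has its own gene. Probe sets whose platform annotation names only 1 gene, with a symbol of the form Col, number, a, number, represented 36 collagen genes of the 12393 genes on the arrays. Each gene was read from 1 of its probe sets, the one with the highest mean log2 signal, out of 58 collagen probe sets in all. The 36 genes comprised 9 fibrillar, 8 network, 3 beaded filament and 1 anchoring fibril chain, 9 fibril-associated chains (FACIT), 3 transmembrane chains, 2 multiplexins and 1 chain, Col26a1, outside these classes.

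The arrays, 6 in all, held skin of C57BL/6 mice that carried a subcutaneous pump for 7 days. TGF-beta was released in 2 mice with 1 array each, and IL-13 and TSLP had 1 array each, all from skin at the pump outlet. PBS was the control, with 1 array of abdominal skin far from the outlet (PBS distal) and 1 array of outlet skin (PBS local). Doses, age and sex are not in the labels, which also leave unstated if both PBS pieces are from 1 mouse.

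Fibrillar collagens form the banded fibrils that give the dermis its strength, and TGF-beta is known as an inducer of their synthesis in fibroblasts. FACIT chains sit on the surface of those fibrils, type VI collagen builds beaded filaments around cells, and type IV collagen forms the sheet of basement membranes. Type VII collagen anchors the epidermal basement membrane to the dermis, and type XVII collagen spans the membrane of basal keratinocytes in hemidesmosomes.

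Promoter sequence is shown for the chain with the largest difference between body sites (Col8a1), for the pair of fibrillar genes whose probe sets were near the top of the signal range (Col1a2 and Col3a1), and for the keratinocyte chain that was brighter in distal skin (Col17a1). The sequences are the 120 bases before the annotated start in RefSeq, build GRCm38.p6, read 5′ to 3′ on the strand of the gene. They lie at chr16:57754738-57754857 on the minus strand, chr6:4505498-4505617 and chr1:45311418-45311537 on the plus strand, and chr19:47692043-47692162 on the minus strand. Capitals mark matches on either strand to the TATA box, spelled TATAAA, to the box named CCAAT after its letters, to the GC box, spelled GGGCGG, or to the SMAD box, spelled CAGAC. No match printed here overlaps another.
Col8a1: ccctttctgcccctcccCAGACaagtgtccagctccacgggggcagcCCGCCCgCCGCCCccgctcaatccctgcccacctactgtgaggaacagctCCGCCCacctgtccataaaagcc
Col1a2: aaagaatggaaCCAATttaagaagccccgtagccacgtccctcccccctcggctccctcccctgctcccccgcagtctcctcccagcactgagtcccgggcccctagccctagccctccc
Col3a1: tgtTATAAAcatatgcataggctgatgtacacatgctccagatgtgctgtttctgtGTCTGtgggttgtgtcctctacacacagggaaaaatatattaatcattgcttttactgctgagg
Col17a1: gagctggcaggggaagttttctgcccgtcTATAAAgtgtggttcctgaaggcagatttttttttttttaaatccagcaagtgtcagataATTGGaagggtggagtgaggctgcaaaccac

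The full window searched was the 250 bases before each start. Of the 21 collagen genes with measurable signal, 17 had such a window, and Col1a1, Col5a2, Col12a1 and Col14a1 were not in the table. A CCAAT box was in the windows of 10 of the 17 genes, against 33.8% of all 32851 windows, a GC box in 11 against 32.7%, a SMAD box in 10 against 42.2%, and a TATA box in 2 (Col3a1 and Col17a1) against 12.4%. A gene was counted if any of its windows held a match, whereas each share is over single windows, of genes with or without signal here. The counts and shares are thus unlike measures. These matches describe the letters only. Col4a1 and Col4a2, which encode the chains of the common type IV collagen, lie head to head on chromosome 8. Their annotated starts are 21 bases apart on opposite strands, placed so that the first bases of the 2 genes overlap.

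Of the 36 genes, 21 reached a signal of 165, the median of all values, on at least 1 array. The other 15 were below it on every array. These included the cartilage-type chains Col2a1, Col9a1, Col9a2, Col9a3, Col10a1 and Col11a2, and 0 of 6 cartilage markers (Acan, Matn1, Matn3, Chad, Cnmd and Hapln1) reached it either. Also below it were Col4a3, Col4a4, Col4a6, Col13a1, Col19a1, Col20a1, Col22a1, Col25a1 and Col26a1. Among these 15 the brightest value was 131 for Col4a6, in PBS distal skin. By class, 7 of 9 fibrillar, 4 of 8 network, 3 of 3 beaded filament, 3 of 9 FACIT and 1 of 3 transmembrane chains were measurable, with Col7a1 and both multiplexins. All 7 fibroblast markers listed, among them Pdgfra, Dcn and Lum, reached 165 on all 6 arrays, as did all 5 basal and 4 suprabasal keratinocyte markers.

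**Figure D1:**
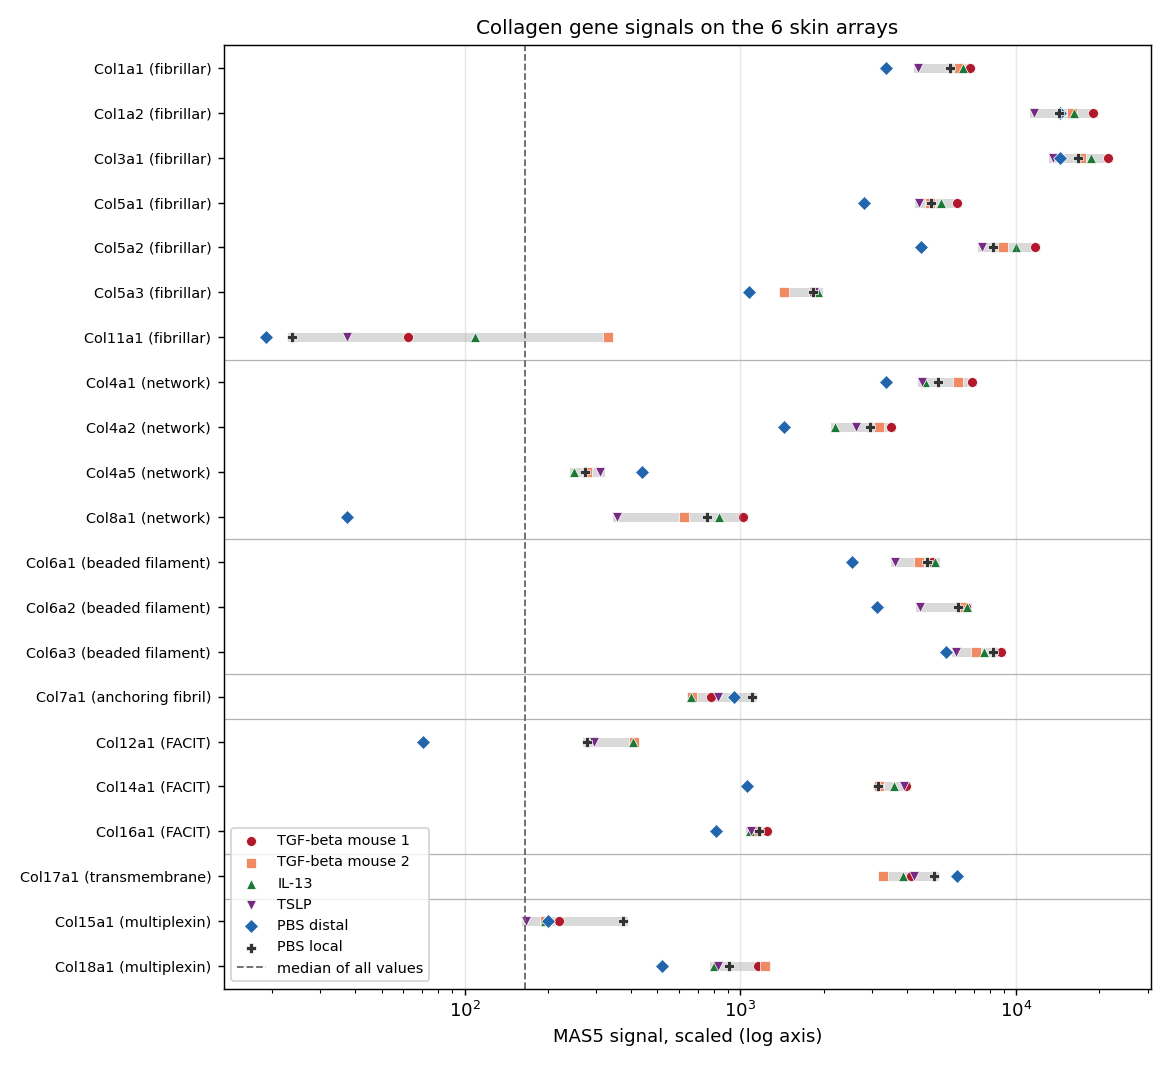
Scaled MAS5 signal (log axis) of the 21 measurable collagen genes, 1 point per array, ordered by class. The grey bar spans the 5 outlet arrays and the dashed line is the median of all values. PBS distal skin, the blue diamond, lies below the whole bar for 15 genes and above it for Col4a5 and Col17a1.

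Distal PBS skin lay below all 5 outlet arrays for 15 of the 21 genes, against 24.9% of all 7945 genes tested, and above all 5 for 2 genes, against 26.8% of all genes. The median difference of the 21 genes was -0.78, against 0.02 for all genes. Differences are in log2(signal + 27.4), and 27.4 was the 25th percentile of all scaled values. The 15 held fibrillar, network, FACIT and type VI chains and Col18a1. The 2 were Col17a1 and Col4a5, while Col7a1, the anchoring chain of the epidermal junction, lay inside the outlet range. Among the 15, Col11a1 was dim, with 19.1 in distal skin and 23.7 in PBS local skin. Col8a1, Col11a1 and Col12a1 reached 165 only on outlet arrays, Col11a1 on 1 of them. The filter thus favoured a lower distal value for these genes, and the count of 15 and the median are descriptions. The collagen genes called, 4 in number, passed limma's moderated test of distal skin against the outlet arrays as 1 group, adjusted over all genes. They were Col8a1, Col12a1, Col14a1 and Col5a1, all lower. Those 4 of 21 stand against 2.68% of all genes called lower, and 0 of 21 were called higher, against 1.25% of all genes. Col8a1 and Col12a1 entered the test only through the outlet arrays, where they were bright, so the count of 4 is a description. With every compared array required to reach 165, Col8a1, Col11a1 and Col12a1 were not tested. Then 6 collagens were called lower, namely Col5a1, Col5a2, Col4a2, Col6a1, Col6a2 and Col14a1. The share of all genes called at this stricter filter is not given here, so that count is a description too.

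Col8a1, a short network-forming chain known from blood vessel walls and the cornea, had a signal of 37.6 in distal skin. At the outlet it was 1022 and 623 under TGF-beta in mouse 1 and mouse 2, 832 under IL-13, 358 under TSLP and 754 under PBS. The distal array was below every outlet array. The difference was -3.44 ± 0.45 (SE), with a limma adjusted p of 0.0147, and Col8a1 passed the filter on dim genes through the outlet arrays alone. Its second probe set was at most 44.4 on any array and 2.69 in distal skin.

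The fibril-surface chains Col12a1 and Col14a1 were next. Col14a1 had a signal of 1059 in distal skin, against 3992 and 3177 under TGF-beta in mouse 1 and mouse 2, 3596 under IL-13, 3920.3 under TSLP and 3161 in PBS local skin. The outlet arrays lay close together, and none came near the distal one. The difference was -1.72 ± 0.17 (SE, limma adjusted p = 0.00832). A second Col14a1 probe set gave -1.65, with 343 in distal skin and no outlet array under 1019. Col12a1 had 70.9 in distal skin, against 412 in both TGF-beta mice, 408 under IL-13, 294 under TSLP and 277 in PBS local skin. It differed by -1.96 ± 0.25 (SE, limma adjusted p = 0.0147) and, like Col8a1, passed the filter only through outlet skin. Col16a1, the other measurable FACIT chain, was at 814 in distal skin and between 1080.5 and 1248 at the outlet, a difference of -0.48 with a limma adjusted p of 0.0857.

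Type V collagen is the minor fibrillar collagen that starts fibril assembly with type I. Col5a1 had a signal of 2795 in distal skin, against 6098 and 4865 under TGF-beta, 5310.1 under IL-13, 4427 under TSLP and 4887 in PBS local skin. The difference was -0.86 ± 0.18 (SE, limma adjusted p = 0.0443), and its other probe sets gave -1.17 and -0.38. Col5a2 was at 4529 in distal skin and between 7496 and 11706 at the outlet, with a difference of -1.01 and a limma adjusted p of 0.0537. Col5a3 was at 1076 in distal skin and between 1432 and 1908 at the outlet (-0.70, limma adjusted p = 0.0688). All the type V chains thus had distal values below the outlet range, with 1 of the 3 past the threshold.

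For the major fibrillar collagens the difference depended on the probe set. Type I collagen, built from Col1a1 and Col1a2, and the type III collagen of Col3a1 make up most of the dermal fibrils. Col1a1 had a signal of 3381 in distal skin, against 6806 and 6168 under TGF-beta, 6396 under IL-13, 4383 under TSLP and 5744 in PBS local skin. Its difference was -0.78 on the kept probe set (limma adjusted p = 0.0984) and -1.24 on the second. Col1a2 was at 14399 in distal skin, against 19003 and 15932 under TGF-beta, 16112 under IL-13, 11591 under TSLP and 14247 in PBS local skin, so that the distal value lay inside the outlet range. Its kept probe set gave -0.08 (95% interval -0.62 to 0.47), but the second gave -0.71, with 8469 in distal skin and at least 10323 at the outlet. Col3a1 was at 14410 in distal skin and between 13549 and 21543 at the outlet on the kept probe set, a difference of -0.26 (95% interval -0.78 to 0.25). On its second probe set it was at 4066 in distal skin and between 7659 and 11737 at the outlet, a difference of -1.20. With the second-brightest probe set standing for each gene, an alternative chosen after seeing the data, Col1a1 and Col3a1 passed the test with limma adjusted p-values of 0.0433 and 0.0410, while Col1a2 had 0.166. The kept probe sets of Col1a2 and Col3a1 ranked between 1 and 38 by signal among 22690 probe sets on all 6 arrays, and Col3a1 was the brightest of all on the mouse 1 TGF-beta, IL-13 and PBS local arrays. The part of this rank in the smaller differences was not tested.

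**Figure D2:**
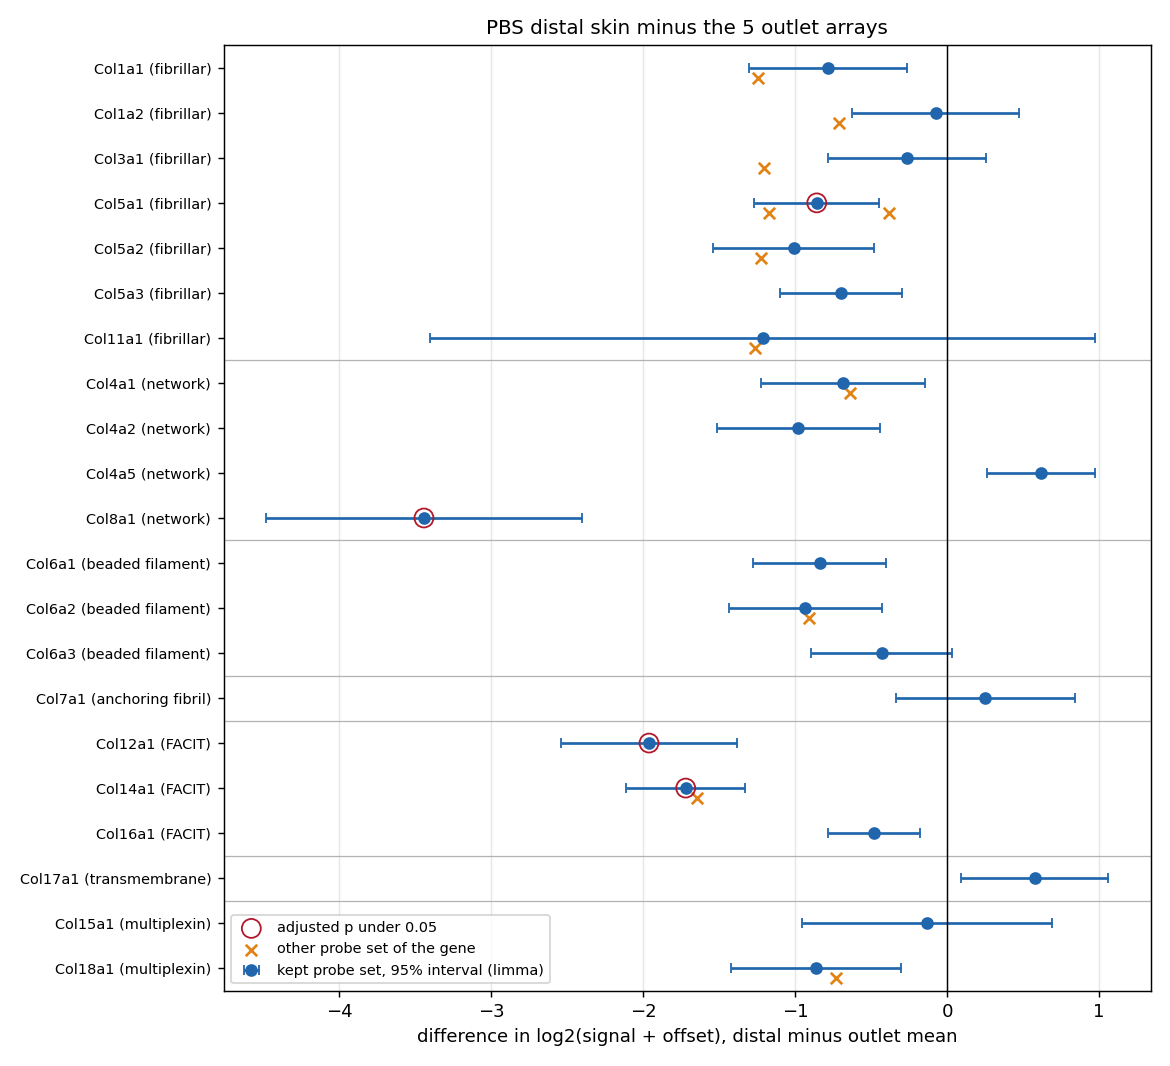
Difference in log2(signal + offset) between PBS distal skin (1 array) and the mean of the 5 outlet arrays for the 21 measurable collagen genes. Points are the kept probe sets with limma's 95% interval, red rings mark an adjusted p under 0.05, and crosses are other probe sets of the same gene. Col8a1, Col12a1, Col14a1 and Col5a1 are ringed, and the crosses of Col1a2 and Col3a1 lie at -0.71 and -1.20, left of their points at -0.08 and -0.26.

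The basement membrane and filament chains had differences of similar size. Col4a1 was at 3355 in distal skin and between 4538 and 6883 at the outlet (-0.68, limma adjusted p = 0.145), and its neighbour Col4a2 at 1437 in distal skin and between 2208 and 3513 at the outlet (-0.98, limma adjusted p = 0.0614). The type VI chains, which ring cells with microfibrils, gave -0.84 for Col6a1, -0.93 for Col6a2 and -0.43 for Col6a3, with limma adjusted p-values of 0.0545, 0.0592 and 0.281. Col18a1, the multiplexin from which endostatin is cut, was at 521 in distal skin and between 803 and 1224 at the outlet (-0.86, limma adjusted p = 0.0932). All these chains were lower on the distal array than on any outlet array, and none passed the threshold. Over the 21 collagens, 15 had an unadjusted limma p under 0.05 in either direction, against 20.5% of all genes. They are not the same 15 as those below the outlet range. They included Col4a5 and Col17a1, which were higher in distal skin, and left out Col6a3 and Col11a1. Among those with such a p, Col8a1 and Col12a1 entered the test only through outlet arrays.

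The distal array was not below the outlet range for 6 chains. Col1a2, Col3a1, Col15a1 and Col7a1 lay inside the range, and Col17a1 and Col4a5 above it. Col17a1 had a signal of 6086 in distal skin, against 4133 and 3274 under TGF-beta, 3869 under IL-13, 4258 under TSLP and 5035 in PBS local skin. Col4a5, a minor type IV chain of the epidermal basement membrane, was at 439 in distal skin and between 250.1 and 310.5 at the outlet. Both were above every outlet array, with differences of 0.58 and 0.62 and limma adjusted p-values of 0.171 and 0.0699. Col7a1 was at 949 in distal skin, inside the outlet range of 659 to 1100.2, and its difference of 0.25 had a 95% interval of -0.34 to 0.84.

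Markers of several cell types also lay outside the outlet range in distal skin. The summed signal of the 5 basal keratinocyte markers was 35159 in distal skin and between 22259 and 27865 at the outlet, and Trp63, the transcription factor of basal keratinocytes, was higher by 0.85 (limma adjusted p = 0.0473). The 5 endothelial markers summed to 1126 in distal skin and between 1755 and 3394 at the outlet, and Cdh5, the cadherin of endothelial junctions, differed by -1.62 (limma adjusted p = 0.0342). The 4 tendon markers summed to 1099 in distal skin and between 3479 and 5761 at the outlet, and the 5 regenerating muscle markers to 446 in distal skin and between 2414 and 5418 at the outlet. Chrna1 of the regenerating muscle list, at 138 in distal skin, lay inside its outlet range of 85.3 to 415. The 4 neutrophil markers summed to 745 in distal skin and between 4266 and 10498 at the outlet, with S100a8 and S100a9 called lower. The 4 macrophage markers summed to 14620 in distal skin and between 18904 and 22881 at the outlet, with Adgre1 called lower. The 5 smooth muscle and pericyte markers summed to 8710 in distal skin and between 12376 and 18872 at the outlet, with Pdgfrb called lower. Myh11 of that list went the other way (0.35), at 456 in distal skin and between 226 and 492 at the outlet. Sums above the outlet range were also found for suprabasal keratinocyte, skeletal muscle, adipocyte and Schwann cell markers, but not every marker went with its sum. Of 6 skeletal muscle markers 5 had a positive difference, while Mb was at 5888 in distal skin and at least 6588 at the outlet (-0.42). Of 3 adipocyte markers 2 had a positive difference, and Fabp4 (-0.01) lay inside the outlet range. The distal Schwann sum of 1815 was mostly Mbp, at 1668, the only 1 of 2 such markers to reach the filter. The 7 fibroblast markers summed to 30770.0 in distal skin and between 31215 and 37589 at the outlet, with a median difference of -0.27 and none past the threshold. The part of these cell types in the collagen values was not tested, and in whole skin fewer cells of a type and less RNA per cell cannot be told apart. The distal array differs from the others in body site and in distance from the pump at once, which cannot be told apart either. In the comparison with the 5 outlet arrays treatment differs as well, since all of them but PBS local received a cytokine.

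The limma test of the body site used 5 outlet arrays under different treatments as the spread and 1 distal array assumed to vary like them. With the outlet treatments kept as separate groups, which leaves 1 residual degree of freedom, none of the 4 calls held: the limma adjusted p-values were 0.0645 for Col8a1, 0.0640 for Col12a1, 0.0845 for Col14a1 and 0.156 for Col5a1. Col5a1 kept its call in 7 of 15 alternatives. It lost it among others without the PBS local array (limma adjusted p = 0.0611), without IL-13 (0.10) and without TGF-beta mouse 1 (0.0582). Without the TSLP array, 8 collagens were called lower, a count given without the share of all genes.

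Set against PBS local skin alone, with 1 array on each side and so no replicate check, distal skin had 4 of 20 measurable collagens at least 2-fold lower, against 3.51% of 7617 genes, and 0 at least 2-fold higher, against 0.788%. These were Col8a1 at -3.59, Col12a1 at -1.63, Col14a1 at -1.55 and Col4a2 at -1.02. The median of the 20 was -0.77, against -0.01 for all genes. Col15a1, a multiplexin of vessel and muscle basement membranes, was at 201 in distal skin and 375 in PBS local skin (-0.82), yet its distal value lay inside the outlet range of 167 to 375. PBS local was its highest array of all.

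The genes that make, bind and break down collagen were read on the same arrays. Of 21 measurable genes of collagen synthesis and processing, 3 were called lower in distal skin, against 2.68% of all genes, and 0 higher, against 1.25%. Their median was -0.47, against 0.02 for all genes. Lox, the lysyl oxidase that begins crosslinking, had a signal of 878 in distal skin and at least 2476 at the outlet (-1.92, limma adjusted p = 0.0391). The related oxidase gene Loxl3 differed by -1.65 (limma adjusted p = 0.0252), and Bmp1, the protease that trims the C-propeptide of fibrillar procollagens, by -1.33 (limma adjusted p = 0.0460). Tgm2, a transglutaminase that links matrix proteins, was at 0.85 with a limma adjusted p of 0.309.

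Of 5 measurable collagen receptor genes, Mrc2, which takes up collagen fragments, was called lower (-1.01, limma adjusted p = 0.0274), against 2.68% of all genes, the share that also stands behind the counts of the next lists. Lair1, an inhibitory collagen receptor of leukocytes, was at -0.99 and the integrin subunit Itgb1 at -0.93, and neither passed. Lair1 reached the filter only under IL-13 and TSLP, at 179 and 217, against 58.7 in distal skin. Ddr1, the collagen receptor kinase of epithelia, was at 4942 in distal skin and between 2725 and 3376 at the outlet, a difference of 0.69 that did not pass. Of 11 breakdown genes, 3 were called lower, namely the inhibitor Timp1 (-3.16), the collagen-cleaving cathepsin Ctsk (-1.40) and the membrane protease Mmp14 (-0.98), with limma adjusted p-values of 0.0147, 0.0111 and 0.0496. The metalloproteinases Mmp13 (-2.44) and Mmp3 (-1.83) did not pass, with limma adjusted p-values of 0.304 and 0.170. Mmp13 reached the filter only under IL-13, with a signal of 692, against 1.11 in distal skin and 15.8 in PBS local skin. Mmp12, also on this list, reached it only under IL-13 and TSLP. Both thus entered the comparison only through outlet arrays where they were bright. Against PBS local skin alone, distal skin differed by -0.60 for Mmp13 and -0.42 for Mmp3. Of 12 fibril-associated proteins, the proteoglycan Bgn (-1.70, limma adjusted p = 0.00950) and Emilin1 (-1.35, limma adjusted p = 0.0302) were called lower, whereas Dcn and Dpt, which also bind dermal fibrils, were at -0.05 and 0.03 and did not pass. These 4 were chosen after their values were seen.

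Under TGF-beta, no collagen gene passed the limma test against PBS local skin, and of 7741 genes 0, or 0%, did. Of the 21 measurable collagens, 0 were at least 2-fold higher in both mice, against 0.181% of all genes, and 0 at least 2-fold lower in both, against 0.155%. The median difference was 0.16 over both mice, 0.25 in mouse 1 and 0.02 in mouse 2, against -0.05, -0.06 and -0.03 for all genes. At an unadjusted p under 0.05 stood 3 collagens, against 4.59% of all genes, and each had a limma adjusted p of 0.864.

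Those 3 were Col12a1, Col7a1 and Col15a1. Col12a1 had a signal of 412 in both TGF-beta mice and 277 in PBS local skin, a difference of 0.53. Col7a1 was at 780.0 and 669 in the TGF-beta mice, against 1100.2 in PBS local skin, a mean difference of -0.59. Col15a1 was at 219.7 and 196 in the TGF-beta mice, against 375 in PBS local skin, a mean difference of -0.78. In each gene both mice lay on the same side of the PBS array.

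Col1a1 differed by 0.24 in TGF-beta mouse 1 and 0.10 in mouse 2, and limma's 95% interval of the mean ran from -0.25 to 0.59. Col3a1 was at 0.37 and 0.05 (-0.27 to 0.69). These values depended on the processing, since after quantile normalization the mean difference was 0.03 for Col1a1 and -0.04 for Col3a1. For Col3a1, the brightest probe set in PBS local skin, that step could not give a positive difference, so its sign there carries no information. Col4a1 was at 0.41 and 0.24 on the kept probe set, but at -0.33 and -0.05 on its second. Col18a1 was higher on both of its probe sets, by 0.33 and 0.42 on the kept one and by 0.27 and 0.34 on the other, with no call. Col11a1, a minor fibrillar chain best known from cartilage, had a signal of 62.2 in mouse 1 and 331 in mouse 2, against 23.7 in PBS local skin. Its second probe set gave 56.9 and 330 in the same mice, against 13.2 in PBS local skin. Mouse 2 was the only array on which Col11a1 reached 165, and the gene entered the comparison through it. The 4 hair follicle markers on the arrays (Krt25, Krt27, Krt71 and Tchh) summed to 135 in mouse 1 and 32961 in mouse 2, against 70.9 in PBS local skin, and their part in the Col11a1 value was not tested.

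The pathway lists held no limma call under TGF-beta either, in 21 measurable synthesis, 4 receptor and 9 breakdown genes. Lox was at 0.98 in mouse 1 and 0.12 in mouse 2, and Tgm2 had a mean difference of -1.14. Mmp3, a matrix metalloproteinase known as stromelysin, was at least 2-fold higher in both mice, at 1.99 and 1.88. It was also at 1.33 under IL-13 and 1.85 under TSLP, and all these differences share the single PBS local array.

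**Figure D3:**
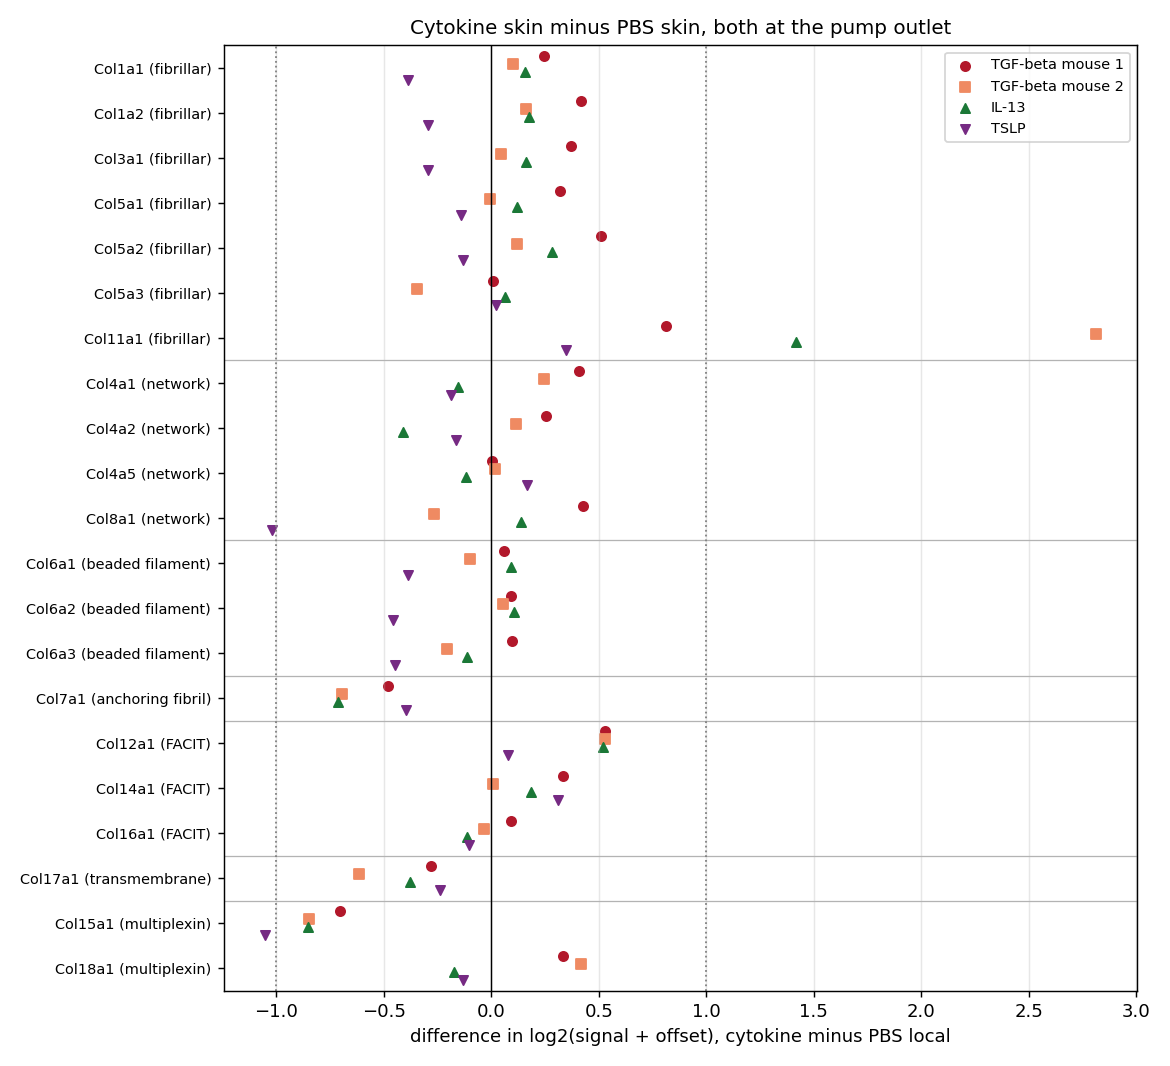
Difference in log2(signal + offset) from the 1 PBS local array for each cytokine array at the pump outlet and each of the 21 measurable collagen genes. Dotted lines mark a 2-fold difference. Apart from Col11a1, the points pass 2-fold only for Col8a1 and Col15a1 under TSLP, and the points of 1 gene share the PBS array.

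IL-13, a type 2 cytokine linked to fibrosis, was measured on 1 array, so its differences have no replicate check. Of 20 measurable collagens, 0 were at least 2-fold higher than in PBS local skin, against 1.12% of 7562 genes, and 0 at least 2-fold lower, against 0.41%. The median was 0.08, against -0.07 for all genes. The 6 measurable fibrillar chains lay between 0.06 for Col5a3 and 0.28 for Col5a2, and 39.8% of all genes were higher. The sign of Col5a3 depended on the processing, since it was at -0.21 with the mean of all probe sets. Col1a2 and Col3a1 were at 0 after quantile normalization, which was fixed in advance and says nothing about their sign. That step gives equal ranks equal values, and by signal Col1a2 ranked 15 and Col3a1 ranked 1 on both arrays. Col12a1 was at 0.52, Col4a2 at -0.41, Col7a1 at -0.72 and Col15a1 at -0.85. Col11a1, with 109 under IL-13 and 23.7 in PBS local skin, was below the filter on both arrays, and the hair follicle markers summed to 1986 under IL-13 and 70.9 in PBS local skin. Among breakdown genes 5 of 11 were at least 2-fold higher, with Mmp13, a collagenase, at 4.06. Of these, Mmp13, Mmp12 and Mmp9 were below the filter in PBS local skin, at 15.8, 23.4 and 157. They entered the comparison only through the IL-13 array, where they were bright, so the count of 5 is a description. Lox was at 0.90, in a synthesis list whose 21 measurable genes had a median of 0.22.

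Under TSLP, 16 of 20 measurable collagens had a lower signal than in PBS local skin, on 1 array each and so with no replicate check. Their median was -0.22, against -0.01 for all genes, of which 48.7% were higher. At least 2-fold lower were 2 of the 20, against 0.447% of 7614 genes, and 0 were at least 2-fold higher, against 0.998%. Col8a1 had 358 under TSLP and 754 in PBS local skin (-1.02), and Col15a1 167 under TSLP and 375 in PBS local skin (-1.05). The type VI chains were at -0.39, -0.46 and -0.45 for Col6a1, Col6a2 and Col6a3, and Col1a1 was at -0.39. Col3a1 was at -0.30 on the kept probe set and 0.00 on the second. Col14a1, at 0.31, had the largest positive difference, and its second probe set gave 0.30. The 21 synthesis genes had a median of 0.05, with Plod2, a lysyl hydroxylase, at -0.95, and 2 of 10 breakdown genes were at least 2-fold higher. Of these, Mmp12 was below the filter in PBS local skin, with 23.4, and entered only through the TSLP array, with 324. The count of 2 breakdown genes is thus a description. The 5 regenerating muscle markers had a median of -0.89, and their part in the collagen values was not tested.

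Col7a1, Col17a1 and Col15a1 can be set side by side across the cytokines, which share the single PBS local array. Col7a1 was at -0.48 and -0.69 in the TGF-beta mice, -0.72 under IL-13 and -0.40 under TSLP. PBS local was the highest array of all for Col7a1, as for Col15a1. Col17a1 was at -0.28 and -0.62 in the TGF-beta mice, -0.38 under IL-13 and -0.24 under TSLP, and the median of the 5 basal keratinocyte markers was -0.17 and -0.19 in those mice, -0.24 under IL-13 and -0.31 under TSLP. Col15a1 was at -0.70 and -0.85 in the TGF-beta mice, -0.85 under IL-13 and -1.05 under TSLP. For chains that assemble together, the gap between their differences was read on the 4 cytokine arrays. It lay between -0.16 and 0.07 for Col6a1 minus Col6a2 and between -0.04 and 0.21 for Col6a1 minus Col6a3. It lay between -0.03 and 0.26 for Col4a1 minus Col4a2, between -0.17 and -0.02 for Col1a1 minus Col1a2, and between -0.19 and -0.01 for Col5a1 minus Col5a2. These gaps were of the size of many of the differences themselves.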

How the data were processed

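Total RNA of mouse skin was labelled with biotin and hybridised to single-colour Affymetrix arrays. Each probe set has 1 linear intensity per array, deposited by the authors. The submitters' processing notes name MAS5, and its version and the genome build are not given in the sources used here. Trimmed means (2% at each end) of the deposited columns lay between 500.16 and 500.20, and the arrays were scaled to their common mean. Precision is limited by how few arrays there are. Values were taken as log2(signal + 27.4), a scale that understates changes of dim genes. Of 22690 probe sets, 20380 named 1 gene, and 20351 of these were matched by gene number to RefSeq (GRCm38.p6). The brightest probe set stood for a gene, and a gene entered a comparison at a signal of 165 or more on at least 1 compared array. limma 3.58.1 under R 4.3.3 (lmFit, eBayes with trend) was fitted across all genes with Benjamini-Hochberg adjustment at 0.05. The TGF-beta comparison with PBS local came from a fit of all 6 arrays in 5 groups, with 1 residual and 3.13 prior degrees of freedom, the single PBS array being assumed to vary like the TGF-beta mice. Distal skin was compared with the 5 outlet arrays in a fit of 2 groups, with 4 residual and 3.74 prior degrees of freedom. IL-13, TSLP and distal skin against PBS local had 1 array each, and a 2-fold difference was called. The distal fit was first tested on simulated data, with an outcome that is not given here. All measurable collagens are named, and of the synthesis, receptor and breakdown lists the genes called or among the 4 with the largest absolute difference in distal skin, with fewer of these for the cytokines. The lists and members were chosen with earlier results of these data known. The alternatives were the offset, quantile normalization, the filter, the probe set rule, the trend, the groups in the fit and leaving out single arrays. Only the TGF-beta labels name separate mice, and p-values measure the spread between these arrays.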

Additional observations from a re-analysis of the deposited data

Results flagged for a closer look

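Among the 5 outlet arrays, 1 value stood far from the others for 2 of the 21 measurable collagen genes. Col5a3 was lowest in TGF-beta mouse 2, with a signal of 1432 against 1827 to 1908 on the other outlet arrays, and the gap was 0.848 of the range of log2 values, above Dixon's critical value of 0.71. Col6a2 was lowest under TSLP, with 4473 against 6155 to 6619, a gap of 0.814 of the range. Chance flags about 1 in 20 such groups, and these arrays carry different treatments.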

How the results depend on the processing

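The count of collagens called lower in distal skin against the outlet arrays was 4, and was 9 after quantile normalization (with 1 called higher, Col4a5), 7 with the second-brightest probe set (chosen after seeing the data), 0 with 5 groups in the fit, and 3 to 8 when 1 outlet array was left out, with 8 reached without TSLP. Col8a1 and Col12a1 kept their call in 13 of 14 alternatives that measured them and Col14a1 in 14 of 15, the exception being the fit in 5 groups. With 1 outlet array left out, the difference of Col15a1 ran from -0.22 to 0.043, positive without PBS local, and that of Col1a2 from -0.17 to 0.0050, positive without TGF-beta mouse 1; neither passed the test. Against PBS local, distal skin had 4 collagens at least 2-fold lower, but 2 with the offset at the median, 2 with every compared array above the filter, 9 with the second-brightest probe set, and 0 called by limma when it borrowed the spread between TGF-beta mice. Under TSLP the count of 2 lower was 0 with the offset at the median, 1 with the mean of all probe sets and 0 by limma with borrowed spread. Under TGF-beta the count of 0 at least 2-fold higher was 1 (Col11a1) with the offset at the 10th percentile, with the second-brightest probe set, and without mouse 1, and 0 without mouse 2. Under IL-13 it was 1 (Col11a1) with no filter on dim genes. The shares of all genes called under these alternatives are not given here, so the counts are descriptions. The causes were not tested. Over the alternatives the median of the measurable collagens ran from -0.89 to -0.66 for distal against outlet skin, from -0.89 to -0.67 for distal against PBS local skin, from 0.02 to 0.25 for TGF-beta, from -0.07 to 0.09 for IL-13 and from -0.22 to -0.14 for TSLP. No paired analysis was possible because only the TGF-beta group has replicate numbers in the labels. Single arrays for 4 of the 5 groups, and signals near the background for 15 genes, limit these values.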
